A study of Mus musculus with 20 samples.

Results

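KLF4 binding at day 5 of reprogramming was compared between cells given a control vector and cells given the histone demethylase JMJD3, as 15803 sites in the mouse genome. The sites were built from 10655 KLF4 peaks with the control vector, called FLAG after the tag it carries, and 14391 KLF4 peaks with JMJD3. Peaks whose midpoints lay within 400 bp were merged into 1 site. By the lists they came from, 1616 sites were FLAG-only, 8859 were common and 5328 were JMJD3-only. The 2 lists were among the 14 peak lists of the series, which hold 94568 peaks in all.

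Both libraries were made by ChIP-seq, in which chromatin is immunoprecipitated, here with an antibody to KLF4, and its DNA sequenced. The cells were mouse embryonic fibroblasts (MEFs) of the C57BL/6J-OG2 strain with intact Jmjd3 (Jmjd3+/+), reprogrammed for 5 days with viral Oct4, Sox2, Klf4 and c-Myc (together OSKM), in medium with vitamin C, plus either the FLAG vector or JMJD3. KLF4 in these cells was therefore the virally expressed protein in both groups, together with any endogenous KLF4. Each group had 1 library, so no difference below had a replicate check and no p-value was computed. The number of reads behind each list was not known, so a longer list from more reads or better enrichment and a longer list from more binding cannot be told apart. Intervals in parentheses are 95% intervals (Wilson for shares, Newcombe for differences in percentage points). They reflect counting error alone, and sites close to each other are not independent of one another.

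KLF4 is a zinc-finger transcription factor that binds GC-rich strings of the kind GGGNGTGG and is known for switching on epithelial genes early in fibroblast reprogramming. JMJD3, encoded by Kdm6b, erases trimethylation of histone H3 at lysine 27 (H3K27me3), the repressive mark laid down by the Polycomb complex PRC2. JMJD3 has no sequence-specific DNA-binding domain and is brought to chromatin by other proteins.

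The sequences below are KLF4 sites at loci that the study assayed by ChIP followed by PCR, and at genes with a site in the JMJD3 list only. Each is the 200 bp around the midpoint of the site, on the plus strand of GRCm38. Capitals mark matches on either strand to the strings GGGNGTGG and GGGNGGGG. The site at the second Sall1 enhancer amplicon lay at chr8:89015645-89015844, between genes, and was JMJD3-only. The site near the start of Sall1 lay at chr8:89041922-89042121 in an intron, and was JMJD3-only. The Tdh site (chr14:63500278-63500477, in a Tdh intron with 43 exonic bases of Tdh) was JMJD3-only. The Sall4 enhancer site (chr2:168841563-168841762, between genes) and the Cdh1 enhancer site (chr8:106632567-106632766, Cdh1 intron) were common. The Stat3 site (chr11:100939572-100939771, Stat3 promoter) and the Nanog site (chr6:122702533-122702732, between genes) were JMJD3-only.
Sall1 enhancer: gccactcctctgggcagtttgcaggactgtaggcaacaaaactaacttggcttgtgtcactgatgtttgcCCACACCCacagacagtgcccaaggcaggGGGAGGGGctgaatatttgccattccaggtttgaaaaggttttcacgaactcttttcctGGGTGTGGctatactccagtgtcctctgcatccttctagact
Sall1 start: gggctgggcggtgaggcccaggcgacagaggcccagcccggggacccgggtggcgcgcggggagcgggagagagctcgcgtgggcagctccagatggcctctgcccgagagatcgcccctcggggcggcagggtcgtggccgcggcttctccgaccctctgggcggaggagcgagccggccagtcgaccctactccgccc
Tdh: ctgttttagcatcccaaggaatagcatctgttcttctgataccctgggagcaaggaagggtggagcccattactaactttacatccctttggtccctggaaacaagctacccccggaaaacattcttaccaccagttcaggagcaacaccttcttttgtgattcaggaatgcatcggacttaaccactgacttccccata
Sall4 enhancer: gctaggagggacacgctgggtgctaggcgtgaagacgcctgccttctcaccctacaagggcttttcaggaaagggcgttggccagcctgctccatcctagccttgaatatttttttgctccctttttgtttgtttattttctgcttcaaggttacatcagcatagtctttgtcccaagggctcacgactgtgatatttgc
Cdh1 enhancer: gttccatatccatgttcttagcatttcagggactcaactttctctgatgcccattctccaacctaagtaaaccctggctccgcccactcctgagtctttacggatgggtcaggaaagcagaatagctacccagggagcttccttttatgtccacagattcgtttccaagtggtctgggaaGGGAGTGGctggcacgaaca
Stat3: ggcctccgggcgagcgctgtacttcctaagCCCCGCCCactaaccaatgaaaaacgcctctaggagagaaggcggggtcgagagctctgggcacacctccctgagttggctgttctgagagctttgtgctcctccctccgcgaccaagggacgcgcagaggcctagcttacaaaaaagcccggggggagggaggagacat
Nanog: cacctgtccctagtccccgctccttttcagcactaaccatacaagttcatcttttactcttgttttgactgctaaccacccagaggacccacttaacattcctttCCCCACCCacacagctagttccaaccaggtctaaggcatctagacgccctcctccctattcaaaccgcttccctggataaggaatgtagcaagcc

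The Sall1 enhancer site was the only one of these 7 that held the KLF motif used for the counts below, GGGTGTGG or GGGCGTGG, and it held 2 copies of GGGTGTGG on opposite strands beside 1 copy of GGGAGGGG. A position called for JMJD3 itself lay 5 bp from its midpoint. The Tdh, Sall1 start and Sall4 enhancer windows held no match to either string, and the Cdh1 enhancer window held 1 copy of GGGAGTGG.

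The assayed loci were read first, because they connect the lists to named regulatory elements. Cdh1 encodes E-cadherin, the adhesion protein of epithelial cells, Sall1 and Sall4 encode zinc-finger factors of the pluripotency network, and Tdh encodes threonine dehydrogenase, an enzyme high in mouse pluripotent cells. All 10 KLF4 primer pairs of the study matched the genome at 1 place each. Of the 10 amplicons, 4 overlapped a KLF4 peak of the JMJD3 list and 1 a KLF4 peak of the FLAG list. These 4 were among the 5 enhancer amplicons, and none of the 4 amplicons near start sites, nor the control amplicon, overlapped a peak of either list. The primers were the study's own choice, so this count is a description of the loci.

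At Sall4, the enhancer amplicon (chr2:168841506-168841682, 74392 bp from the Sall4 start site) overlapped a peak of both lists. At Tdh, the enhancer amplicon (chr14:63500409-63500517, 8630 bp from the Tdh start site) overlapped a JMJD3 peak of 183 bp, the narrowest width that list contains, and no FLAG peak was called there. At Sall1, the second enhancer amplicon (chr8:89015699-89015891, 28368 bp from the Sall1 start site) overlapped a JMJD3 peak of 356 bp with no FLAG peak, and the first (chr8:89006531-89006700) overlapped no KLF4 peak, although a JMJD3 position lay 119 bp from its midpoint. At Cdh1, the enhancer amplicon (chr8:106632777-106632948, 29483 bp from the Cdh1 start site) overlapped the JMJD3 peak of 519 bp but lay outside the FLAG peak of the same site, which had the FLAG list's narrowest width of 174 bp. The start-site amplicons of Cdh1, Tdh, Sall4 and Sall1 lay 28572, 8476, 23293 and 1422 bp from the nearest KLF4 site midpoint. At these 4 genes, then, KLF4 peaks overlapped enhancer amplicons and no start-site amplicon, namely at Sall4 in both lists, at Tdh and Sall1 at a JMJD3-only site, and at Cdh1 at a common site of which the JMJD3 peak alone reached the amplicon.

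Over the genome, the classes differed in width. FLAG-only peaks had a median width of 209 bp, against 293 bp for common sites in the same list. JMJD3-only peaks had a median of 238 bp, against 340 bp for common sites in the JMJD3 list. Among sites of the FLAG list, the FLAG-only share went from 34.1% (32.3 to 35.9) in the narrowest quartile of width to 2.03% (1.55 to 2.64) in the widest. Among sites of the JMJD3 list, the JMJD3-only share went from 69.0% (67.4 to 70.4) to 10.9% (9.90 to 11.95). Sites found in 1 list were thus mostly narrow ones in both lists, and in each quartile the JMJD3 list had the larger share of them. At the narrowest width its list contains stood 17.7% (15.9 to 19.6) of FLAG-only sites and 10.98% (10.2 to 11.8) of JMJD3-only sites. For common sites this share was 4.29% (3.89 to 4.73) in the FLAG list and 1.74% (1.49 to 2.03) in the JMJD3 list. The lists give no peak height or score, so width was the only measure by which peaks could be ranked.

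**Figure D1:**
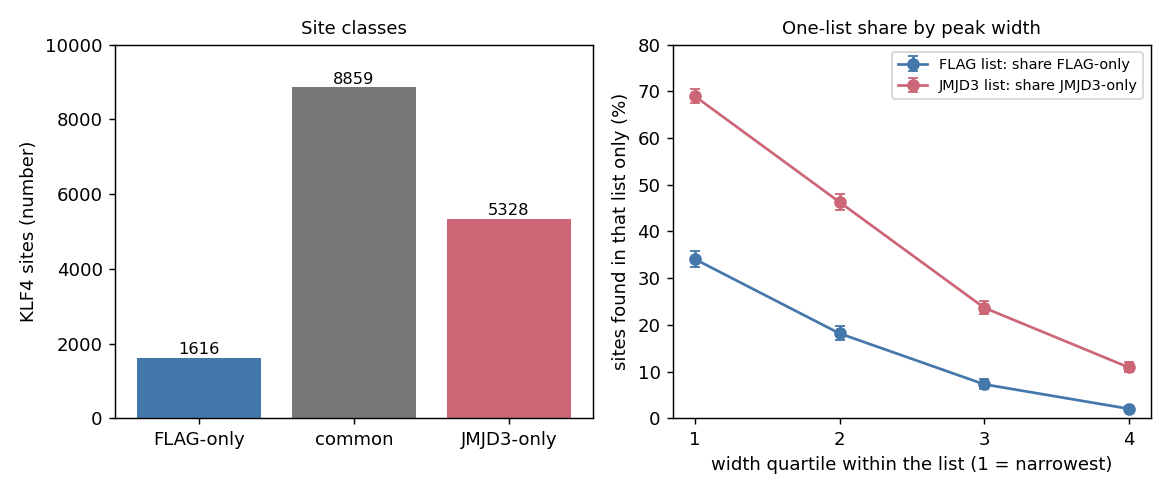
Left, number of KLF4 sites in each class. Right, the share of each list's sites found in that list only (%), by quartile of peak width within the list, with 95% Wilson intervals. The share falls from 69.0% to 10.9% in the JMJD3 list and from 34.1% to 2.03% in the FLAG list.

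Common sites also had wider peaks in the JMJD3 list. Peak width, like list length, can depend on read depth and enrichment. The narrowest widths differed too, at 174 bp in the FLAG list and 183 bp in the JMJD3 list. With 1 library per group of unknown depth, wider peaks from these and from more KLF4 binding cannot be told apart. At 8559 common sites with a single peak in each list, the JMJD3 peak was the wider one in 70.9% (69.9 to 71.9), with a median ratio of 1.13. At sites within 1 kb of a transcription start site (TSS) the JMJD3 peak was wider in 74.5% (73.2 to 75.7) of 4596, with medians of 308 bp with FLAG and 377 bp with JMJD3. At sites over 5 kb from a TSS it was wider in 66.8% (65.1 to 68.4) of 3093, with medians of 280 and 309 bp. A wider JMJD3 peak was therefore more frequent at promoters than at distal sites. With respect to JMJD3 itself, the median ratio was 1.13 both at the 3150 sites with a JMJD3 position within 400 bp and at the 5409 without one. At 142 common sites that overlapped an H3K27me3 peak of day 5 Jmjd3+/+ FLAG cells, the JMJD3 peak was wider in 81.7% (74.5 to 87.2). At the 8417 without such a peak it was wider in 70.7% (69.8 to 71.7). Marked common sites lay mostly near genes, 118 of 146 within 5 kb of a TSS. The median ratio was 1.16 at the 142 sites, against 1.18 at the sites within 1 kb of a TSS.

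Position relative to genes separated the FLAG-only sites from the rest. The median distance to the nearest TSS was 6008.5 bp for FLAG-only, 497 bp for common and 982.5 bp for JMJD3-only sites. Promoters, taken as within 1 kb of a TSS, held 32.3% (30.1 to 34.6) of FLAG-only, 54.5% (53.4 to 55.5) of common and 50.2% (48.9 to 51.5) of JMJD3-only sites. Introns held 36.8%, 23.5% and 26.3%, and intergenic sequence 27.8%, 19.6% and 20.3%, in the same order. Within 5 kb of a TSS, FLAG-only sites differed from common sites by -16.8 points (-19.4 to -14.1) and JMJD3-only sites by -2.44 points (-4.08 to -0.802). The second difference turned with width. Among peaks of like width JMJD3-only sites were the more promoter-proximal, with a mean difference over the 4 width quartiles of 7.61 points and an interval above 0 in each quartile. With the JMJD3 list cut to its widest peaks, as many as the FLAG list has, a setting added once the data had been seen, it was 0.949 points (-1.08 to 2.94). The FLAG-only difference kept its sign under both, at -12.4 and -18.4 points. The 200 bp windows averaged 52.6% GC and 7.08 CpGs in the FLAG-only class. Common windows had 59.7% and 12.2 CpGs, and JMJD3-only windows had 58.5% and 10.9.

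**Figure D2:**
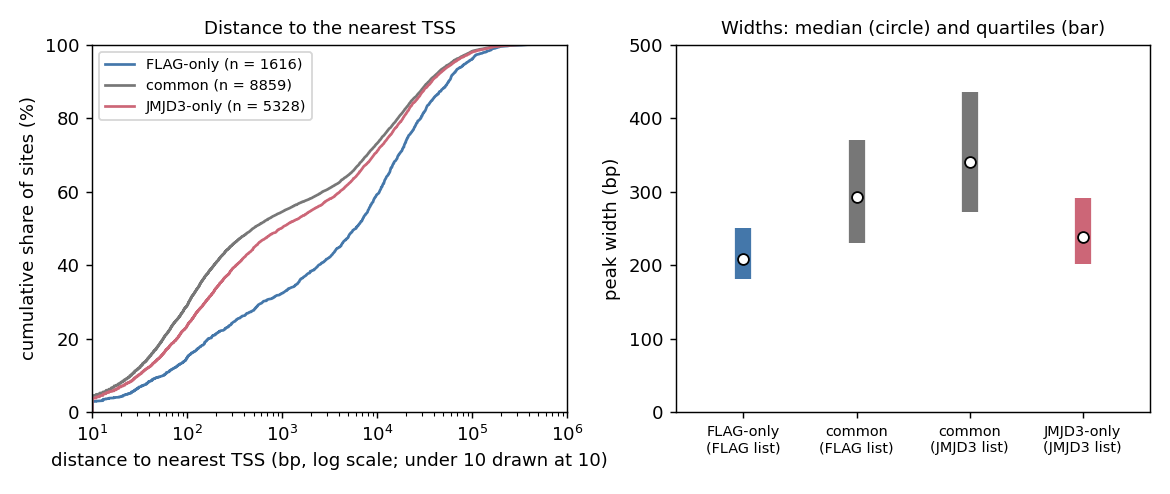
Left, cumulative share of sites (%) against distance to the nearest TSS (bp, log scale). Right, median peak width (circle) and quartiles (bar) in bp by class and list. The FLAG-only curve lies lowest, with a median of 6008.5 bp against 497 bp for common sites, and sites found in 1 list are narrower than common sites.

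The KLF motif was then counted, to ask whether sites found in 1 list carry KLF4's own sequence as often as common ones. The motif was GGGTGTGG or GGGCGTGG on either strand, in the 200 bp around the midpoint. It was present at 30.1% (27.9 to 32.4) of FLAG-only, 30.2% (29.2 to 31.2) of common and 26.1% (24.9 to 27.3) of JMJD3-only sites. In windows 2 kb to either side the shares were 3.09%, 2.82% and 2.81%, and 6.56% (6.30 to 6.84) of 32851 RefSeq promoter windows of the same length held it (GRCm38). All 3 classes thus carried the motif far more often than their flanks, 9.72, 10.7 and 9.29 times as often. JMJD3-only sites differed from common ones by -4.13 points (-5.64 to -2.60) and FLAG-only sites by -0.121 points (-2.51 to 2.35). The FLAG-only difference depended on the string, at -6.01 points (-8.62 to -3.43) with GGGNGTGG or GGGNGGGG. With the motif above, its mean over width quartiles was -3.57 points, where the interval included 0 in each quartile and the mean rested on the wider ones (0.977, -0.026, -4.69 and -10.5 points from the narrowest). Strings of other factors were searched in the same windows on both strands, ACAATGG or ACAAAGG for SOX, ATGCAAAT or ATGCTAAT for OCT and TGACTCA or TGAGTCA for AP-1. Their shares were 1.11 to 1.49 times those of the flanks over the 3 classes.

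The letters of the motif differed between classes. GGGTGTGG was present at 21.9% (20.0 to 24.0) of FLAG-only sites, 17.0% (16.2 to 17.8) of common and 16.3% (15.3 to 17.3) of JMJD3-only sites. GGGCGTGG, which contains a CpG, was present at 9.34% (8.02 to 10.9), 14.8% (14.1 to 15.5) and 10.9% (10.1 to 11.8). Near promoters the motif was less frequent in both single-list classes, at 15.1% (12.3 to 18.5) of FLAG-only and 15.9% (14.6 to 17.4) of JMJD3-only sites against 23.6% (22.4 to 24.8) of common sites. Over 5 kb from a TSS the shares were 35.7%, 35.3% and 38.5%. By peak width the JMJD3-only share went from 29.2% in the narrowest quartile through 26.5% and 21.1% to 14.8% in the widest. Common sites had 29.6%, 35.0%, 32.3% and 25.8% in the same quartiles. FLAG-only sites had 31.0%, 31.6%, 25.3% and 18.9% in the quartiles of the FLAG list, the widest with 53 sites only, and common sites 29.99%, 31.6%, 29.95% and 29.4%. Where a motif lay within 500 bp of the midpoint, the nearest one was a median of 44 bp away at FLAG-only and common sites and 48 bp at JMJD3-only sites.

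**Figure D3:**
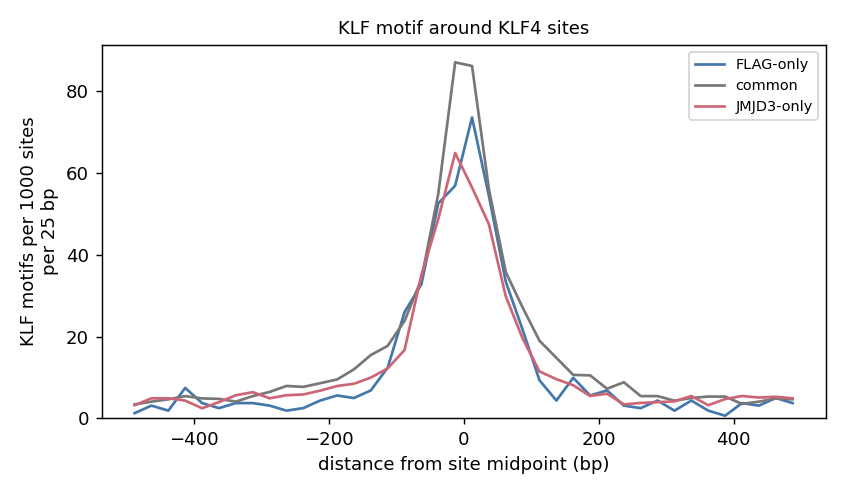
KLF motifs per 1000 sites in 25 bp bins against distance from the site midpoint (bp), for the 3 classes. Each class peaks at the midpoint, and the common class is highest there, with 87.1 and 86.2 motifs per 1000 sites in the 2 central bins against 64.9 and 56.5 for JMJD3-only sites.

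Binding of JMJD3 itself was read from the list of FLAG-tagged JMJD3 positions in day 5 OSKM cells, made with an antibody to the tag. A JMJD3 position lay within 400 bp of 37.2% (36.2 to 38.2) of common sites, 26.6% (24.5 to 28.8) of FLAG-only and 25.9% (24.7 to 27.1) of JMJD3-only sites. JMJD3-only sites thus had JMJD3 nearby less often than common sites, by -11.3 points (-12.8 to -9.72), and FLAG-only sites differed from common sites by -10.6 points (-12.9 to -8.13). Against FLAG-only sites, JMJD3-only sites differed by 4.49 points (0.441 to 8.20) within 1 kb of a TSS and by -5.62 points (-9.36 to -1.97) over 5 kb away. Both differences from common sites had the same sign at like widths, at -7.25 and -8.53 points. For JMJD3-only sites within 1 kb of a TSS the like-width mean was -2.09 points, with an interval that included 0 in each of the 4 quartiles, and over 5 kb away it was -15.2 points. With the KLF motif in the window the shares were 32.5% (30.7 to 34.3) of common, 14.2% (11.4 to 17.6) of FLAG-only and 14.8% (13.1 to 16.8) of JMJD3-only sites. Without it they were 39.2% (38.0 to 40.4), 31.9% (29.3 to 34.7) and 29.8% (28.4 to 31.2). A JMJD3 position from cells with low KLF4 lay near 5.08%, 2.54% and 3.73% of common, FLAG-only and JMJD3-only sites.

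The mark that JMJD3 removes was compared next. Of JMJD3-only sites, 157 (2.95%, 2.53 to 3.44) overlapped an H3K27me3 peak of day 5 Jmjd3+/+ FLAG cells, against 146 common sites (1.65%, 1.40 to 1.93) and 16 FLAG-only sites (0.990%, 0.610 to 1.60). JMJD3-only sites exceeded common sites by 1.30 points (0.789 to 1.85), and by a mean of 2.04 points at like widths. Within 5 kb of a TSS the shares were 4.17% (3.54 to 4.91) of JMJD3-only and 2.06% (1.73 to 2.47) of common sites, and farther away 0.941% (0.603 to 1.47) and 0.891% (0.617 to 1.29). At like widths the mean difference was 2.33 points within 5 kb and 0.882 points farther away, where 19 JMJD3-only and 28 common sites were marked. The order JMJD3-only, common, FLAG-only held by point value in all 10 H3K27me3 lists, untreated MEFs and Jmjd3-/- cells included. In Jmjd3+/+ MEFs before OSKM the shares were 2.76% (2.35 to 3.23), 1.67% (1.42 to 1.959) and 1.30% (0.852 to 1.98). The Jmjd3-/- cells carried another strain label, C57Bl6J, so strain and genotype cannot be told apart there.

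Of the H3K27me3-marked sites of day 5 FLAG cells, 98 of 157 JMJD3-only sites (62.4%, 54.6 to 69.6) overlapped no H3K27me3 peak in the JMJD3 cells, against 97 of 146 common sites (66.4%, 58.4 to 73.6). JMJD3-only and common sites thus did not separate by loss of the mark at this number of sites. For FLAG-only sites the count was 7 of 16 (43.8%, 23.1 to 66.8). The 5 widest of the 98, named after their values were seen, lay at the promoters of Gm35065 (627 bp), Ndrg2 (508 bp), Zdhhc23 (474 bp), Kcnh4 (461 bp) and Igfbp4 (457 bp). Kcnh4 encodes a potassium channel and Igfbp4 a binding protein for insulin-like growth factors. Igfbp4, Kcnh4 and Gm35065 also overlapped an H3K27me3 peak in untreated Jmjd3+/+ MEFs.

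**Figure D4:**
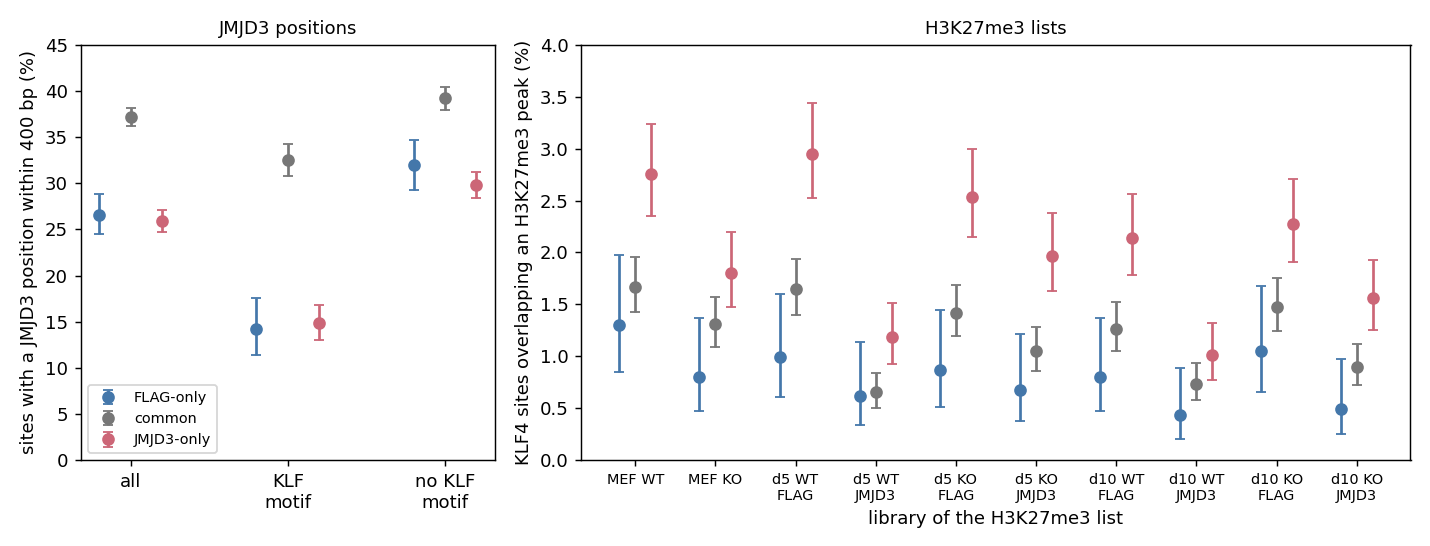
Left, share of sites (%) with a JMJD3 position within 400 bp, for all sites and for those with and without the KLF motif. Right, share of sites (%) overlapping an H3K27me3 peak in each of the 10 lists. Points are shares and bars 95% Wilson intervals. Common sites are highest on the left (37.2% over all sites) and JMJD3-only sites highest in each list on the right (2.95% in day 5 WT FLAG).

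Genes were then taken with all TSSs, and a site within 10 kb counted. Of 21909 protein-coding genes, 29.8% had a site in both lists, 2.15% in the FLAG list only and 11.6% in the JMJD3 list only. In all, 36 members of the gene lists below had a site in the JMJD3 list only and 1, Twist1, in the FLAG list only. The nearest site of these 36 genes had a width from 183 to 389 bp and a median of 229 bp, close to the median of all JMJD3-only sites, and 6 stood at the narrowest width of the list.

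Of 30 epithelial genes, 15 had a site in both lists, none in the FLAG list only and 10 in neither. In the JMJD3 list only, 5 had a site, 16.7% against 11.6% of all protein-coding genes. The 5 were Esrp2, an epithelial splicing regulator, St14, a membrane serine protease, Cgn, the tight-junction protein cingulin, Lsr, a tricellular-junction protein, and Dsp, the desmosomal protein desmoplakin. Their sites lay 2, 42, 56, 328 and 1622 bp from a TSS, so 4 of the 5 were at promoters. Peak widths were 183 bp at Esrp2, 192 bp at St14, 227 bp at Cgn, 349 bp at Lsr and 183 bp at Dsp. The St14 and Lsr windows each held 1 KLF motif. The Lsr site lay closer to the start of Fam187b, at 12 bp, and the Dsp site to that of Gm10129, at 1158 bp. Genes with a site in both lists included Cldn7 (claudin 7, peaks of 205 and 346 bp with FLAG and JMJD3), Perp (317 and 404 bp) and Crb3, a polarity protein (509 and 434 bp). The Crb3 site lay closer to the start of Slc25a23, at 791 bp. Of the 16 common sites near epithelial genes, 10 were wider and 6 narrower with JMJD3, beside the 70.9% wider among all common sites with a single peak in each list. Cdh1, Epcam, Ocln and Krt18 were among the 10 genes with no site. With the JMJD3 list cut to its widest peaks, as many as the FLAG list has, the genes with a site numbered 17 in the JMJD3 list, in place of 20, against 15 in the FLAG list. In that setting 2 genes had a site in the JMJD3 list only, 6.67% of 30, against 7.39% of all protein-coding genes.

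Of 30 pluripotency genes, 5 had a site in both lists (Tfcp2l1, Fgf4, Fbxo15, Lefty1 and Trim28), 6 in the JMJD3 list only and 19 in neither. Among the 6 were Stat3, the LIF signalling factor (132 bp from a TSS, peak of 302 bp), Mycn (647 bp, 278 bp), Sall1 (2140 bp, 215 bp), Nanog (4856 bp, 183 bp) and Tdh (8714 bp, 183 bp). JMJD3 positions lay 21 bp from the Stat3 site and 101 bp from the Tdh site, and none lay within 400 bp of the Mycn, Sall1 and Nanog sites. The share in the JMJD3 list only, 20.0% of 30, stood beside the 11.6% of all protein-coding genes. With the JMJD3 list cut to the FLAG number, 8 genes in place of 11 had a site in the JMJD3 list, against 5 in the FLAG list. Among sites of this list the common Tfcp2l1 site, at the promoter 20 bp from a TSS, was the one with most KLF motifs, 3 in its window. Other genes had a closer start to the Nanog site (Gm10224, 3605 bp), the Tdh site (Gm17232, 6679 bp) and the Lefty1 site (Tmem63a, 84 bp).

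Of 30 mesenchymal genes, 6 had a site in both lists, 6 in the JMJD3 list only, 1 in the FLAG list only and 17 in neither. The JMJD3-list genes by distance were Tgfbr2 (99 bp from a TSS), Tgfbr1 (143 bp), Col1a2 (1461 bp), Snai1 (2651 bp), Tgfb3 (3671 bp) and Prrx1 (4954 bp). Other genes had a closer start to the Tgfb3 site (Ift43, 125 bp), the Prrx1 site (Gm37644, 353 bp) and the Col1a2 site (Gm43921, 867 bp). They encode receptors and a ligand of TGF-beta signalling, a fibrillar collagen chain and mesenchymal transcription factors. Mesenchymal genes thus had a share in the JMJD3 list only, 20.0%, equal to that of pluripotency genes, beside 11.6% of all protein-coding genes. With the JMJD3 list cut to the FLAG number, 3 mesenchymal and 3 pluripotency genes had a site in the JMJD3 list only. This was 10.0% of 30 in each case, against 7.39% of all protein-coding genes. Twist1, a mesenchymal transcription factor, had a FLAG-only site of 231 bp at 6595 bp.

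The JMJD3 list alone held sites at genes for chromatin regulators too, beside the 11.6% of all protein-coding genes. The list of 20 genes for cohesin, Mediator and elongation factors also held Ep300, Crebbp, Kdm7a and Chd7. Of these 20 genes, 5 had a site in both lists, 8 in the JMJD3 list only, none in the FLAG list only and 7 in neither. The 5 nearest of the 8 were Wapl, which releases cohesin (20 bp from a TSS), Cdk9, the kinase of P-TEFb (52 bp), Chd7, a chromatin remodeller (164 bp), Smc3, a cohesin subunit (169 bp) and Med13, of the Mediator kinase module (434 bp). The widths of the 8 peaks ran from 183 to 276 bp. With the JMJD3 list cut to the FLAG number, 4 of the 8 were left in the JMJD3 list only, 20.0% of 20, against 7.39% of all protein-coding genes. Of 20 genes for Polycomb proteins and H3K27 demethylases, 11 had a site in both lists, 5 in the JMJD3 list only and 4 in neither. The 5 were Rbbp4 (44 bp), Suz12 (118 bp), Phc2 (139 bp), Ezh2 (308 bp) and Jarid2 (2568 bp), of which Ezh2 encodes the methyltransferase of PRC2 and Suz12, Rbbp4 and Jarid2 other PRC2 proteins. With the JMJD3 list cut likewise, 3 genes (Jarid2, Phc2 and Rbbp4) had a site in the JMJD3 list only. JMJD3 positions lay within 400 bp of the Ezh2, Suz12 and Jarid2 sites, at 291, 188 and 49 bp. One also lay 15 bp from another Phc2 promoter site, 416 bp from a TSS, and none within 400 bp of the Rbbp4 site and the nearest Phc2 site.

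Immediate early genes, cell-cycle inhibitors and KLF and SP factors mostly had sites in both lists, where 29.8% of all protein-coding genes did. Their counts in the JMJD3 list only, 3 of 15, 1 of 15 and 2 of 20, stood beside the 11.6% of all protein-coding genes. Of 15 AP-1 and immediate early genes 10 had sites in both lists, and Fos (36 bp), Maff (207 bp) and Ier3 (2011 bp) had sites in the JMJD3 list only. Of 15 cell-cycle inhibitor and senescence genes 12 did so, among them Cdkn1a, which encodes p21 (peaks of 283 and 329 bp), and Cdkn2a, which encodes p16 and ARF (355 and 509 bp). Trp53, which encodes p53, had a JMJD3-only site at 1189 bp. Of 20 KLF and SP genes 14 did, with Klf6 (400 bp) and Klf12 (909 bp) in the JMJD3 list only. Other genes had a closer start to the Ier3 site (Flot1, 348 bp) and the Klf12 site (Gm41231, 577 bp).

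**Figure D5:**
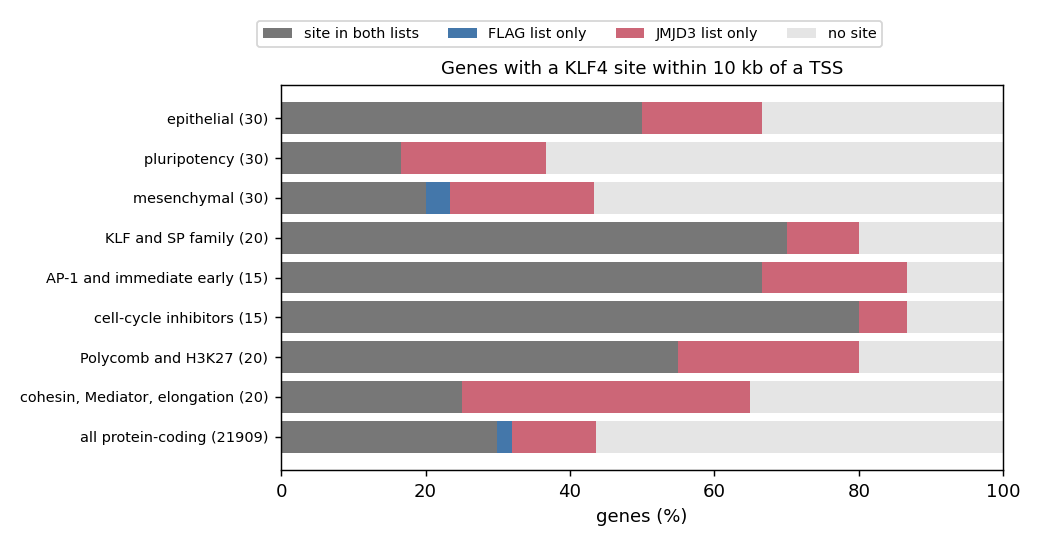
Share of genes (%) with a KLF4 site within 10 kb of a TSS in both lists, the FLAG list only, the JMJD3 list only or neither, for 8 gene lists (number of genes in parentheses) and all protein-coding genes. The JMJD3-only part is longest for cohesin, Mediator and elongation genes, at 8 of 20, against 11.6% of all genes, and at 4 of 20 against 7.39% with the JMJD3 list cut to the FLAG number.

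H3K27me3 was then read at the listed genes. Near them lay 66 JMJD3-only, 98 common and 9 FLAG-only sites. An H3K27me3 peak of day 5 FLAG cells overlapped 4 of the 66, at Esrp2, St14, Sall1 and Cdkn1c, which encodes the cell-cycle inhibitor p57. None of these 4 overlapped an H3K27me3 peak in the JMJD3 cells. Over all sites the corresponding shares were 2.95% marked, and 62.4% of the marked ones without a peak in the JMJD3 cells. Of the 98 common sites 2 were marked, against 1.65% of all common sites, at Pkp1 (plakophilin 1), where no peak was called with JMJD3, and at Cldn7, where one was. Of the 9 FLAG-only sites 1 was marked, against 0.990% of all FLAG-only sites. It lay at Ovol1, an epithelial transcription factor, and was marked in both. The St14 and Cdkn1c sites also overlapped an H3K27me3 peak in untreated Jmjd3+/+ MEFs, and the Esrp2 and Sall1 sites did not. Other genes had a closer start to the Cdkn1c site (Gm44732, 72 bp) and the Ovol1 site (AC126029.1, 198 bp).

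The genes carried by the viruses were kept apart, because reads from vector DNA map to their exons and cannot be told apart from binding at the gene. Peaks on exons of Pou5f1 (which encodes OCT4), Sox2, Klf4 and Myc were called in both lists. At Sox2 the peak was 948 bp wide with FLAG and 1032 bp with JMJD3, and at Klf4 972 and 917 bp. At Kdm6b the FLAG list had 1 peak of 174 bp on an exon, and the JMJD3 list had 2 others, of 427 and 262 bp.

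Both single-list classes lay about as close to common sites. A common site lay within 10 kb of 19.3% (18.3 to 20.4) of JMJD3-only and 19.5% (17.6 to 21.5) of FLAG-only sites, and within 100 kb of 70.1% (68.8 to 71.3) and 67.9% (65.6 to 70.1). The nearest protein-coding gene was also nearest to a common site for 44.99% (43.7 to 46.3) of JMJD3-only and 50.4% (48.0 to 52.9) of FLAG-only sites. By nearest protein-coding gene, with ties taken in alphabetical order, most JMJD3-only sites fell to Atg7, an autophagy enzyme, Gas8 and Sfi1, with 6 each, and to 1700001O22Rik and Ezh2, the first of several genes with 5 each. Most FLAG-only sites fell to Rhou, with 5, to Foxn3, Rbfox1 and Spred2, with 4 each, and to 4930572O03Rik, the first of several genes with 3 each. Ezh2 was the nearest gene of 5 common sites as well, and of no FLAG-only site. Rhou was the nearest gene of 9 common and 5 JMJD3-only sites.

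The widest sites of each class were read last. The 3 widest FLAG-only sites lay in intronic sequence with the nearest TSS that of Sfi1 (645 bp) and of 1700025N23Rik (547 bp), and at the promoter of Rnu2-10 (538 bp). The 3 widest JMJD3-only sites lay at the promoters of 2610005L07Rik (1164 bp), 2700099C18Rik (874 bp) and Eif4g2 (824 bp), which encodes a translation initiation factor, and each had a JMJD3 position nearby, at 2, 374 and 29 bp. The FLAG-only site near 1700025N23Rik had one too, at 49 bp. The next widest JMJD3-only sites, at Cox6b2, Setd1a and Hspbp1, had none within 400 bp. The 3 widest common sites, of 4456, 4207 and 3963 bp with JMJD3, lay at Gm28437, Gm26917 and Gm21738. Of the last of these, 84.0% of the window was masked as repeat, and none of the windows at Gm28437 and Gm26917 was. No filter for regions prone to read pile-up was applied here to sites of any class. Wide peaks from binding and from such pile-up therefore cannot be told apart.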

How the data were processed

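Labels and the study's methods were used to group the libraries, with 1 library per group. Per the labels and methods, the authors aligned reads to mm10 with Bowtie2 (version 2.2.0 in the processing notes) and called KLF4 and JMJD3 peaks per library with MACS2, with the threshold and control library not given in the sources used here. The deposited KLF4 lists give intervals in bp with an empty (0) value column, and the deposited JMJD3 lists give 1 bp positions. The deposited H3K27me3 lists also hold a score from the authors' peak caller, which was not used. Read depth is unknown.

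KLF4 midpoints within 400 bp were merged by single linkage. TSSs came from GENCODE M21 basic, sequence from GRCm38.p6 (mm10) and promoter windows from RefSeq. H3K27me3 overlap was at least 1 bp of the KLF4 peak. Width quartiles were set within each list. Motif counts used exact string matches on either strand. Python 3.11.15, numpy 2.4.6, scipy 1.17.1 and pysam 0.24.0 were used, and merging, overlap and motif counts were tested on simulated data. Sites, lists and comparisons were chosen with earlier results of these data known.

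Named genes were list members with a site within 10 kb in 1 list only (all for epithelial and pluripotency genes except 1 that is not reported here, up to 5 by TSS distance for other lists, exceeded for the mesenchymal list), the 5 protein-coding genes nearest to most sites of each single-list class and the 3 widest sites per class. Other names serve as examples chosen after their values were seen. Sequences are those of the assayed loci and of named genes. The sequence of the Sall1 enhancer site was added after the values were seen. The 6 samples with no peak list in the files were not analysed here.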

Additional observations from a re-analysis of the deposited data

How the results depend on the processing

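Of 66 alternatives over 15 results, 34 left the value within its main interval or, for gene counts, within 1.5 times. Of the others, 30 moved it and 2 reversed the sign of the point value. The TSS difference of JMJD3-only against common sites (-2.44 points within 5 kb) reversed to 7.61 as the mean over width quartiles and to 0.949 with lists of equal length, the latter chosen after the data were seen, and moved to -4.28 at 1 kb. For FLAG-only sites it was -22.2 at 1 kb, -13.9 at 10 kb, -21.1 with protein-coding TSSs and -12.4 over width quartiles. Of FLAG sites, 82.0% were common with merging at 200 bp, 85.4% at 800 bp, 79.4% in the wider 50% of each list and 73.9% with equal lists. For JMJD3 sites these were 60.6%, 63.9%, 58.6% and 73.1%. The KLF motif difference of JMJD3-only sites became -6.40 with the shorter string and -7.76 over width quartiles. That of FLAG-only sites became -6.01, -3.57 and, over 5 kb from a TSS, -2.83. The JMJD3 position difference of JMJD3-only sites became -7.25 over width quartiles and -16.4 over 5 kb from a TSS. The H3K27me3 difference became 2.04 within 1 kb of the peak, 2.04 over width quartiles and 2.11 within 5 kb of a TSS. Epithelial genes with a FLAG site numbered 25 within 50 kb, against 15 within 10 kb. Pluripotency genes numbered 15 and 3 within 50 and 2 kb in the FLAG list (5 within 10 kb), and 18 and 6 in the JMJD3 list (11). With lists of equal length, chosen after the data were seen, the cohesin, Mediator and elongation genes in the JMJD3 list only became 4 in place of 8 and the Polycomb and demethylase genes 3 in place of 5. No paired analysis was possible because each group had 1 library. The libraries have no replicate and no known depth, and the lists no score, so the share of sites in 1 list cannot be told apart from a difference in how many weak peaks each library allowed to be called.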

Other observations

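By chromosome, the JMJD3-only share of JMJD3-list sites ran from 32.8% (28.7 to 37.2) on chromosome 16 to 42.0% (35.2 to 49.2) on chromosome X, with chromosome Y at 18.2% (7.31 to 38.5) of 22 sites. The FLAG-only share of FLAG-list sites ran from 10.0% on chromosome Y and 13.1% (10.4 to 16.4) on chromosome 3 to 19.3% (13.5 to 26.7) on chromosome X. Repeat-masked sequence covered more than 50% of the window at 10.6% (9.23 to 12.2) of FLAG-only, 6.29% (5.80 to 6.81) of common and 7.70% (7.01 to 8.44) of JMJD3-only sites. Windows with 2 or more KLF motifs made up 5.85% (5.38 to 6.36) of common, 3.71% (2.90 to 4.75) of FLAG-only and 3.75% (3.28 to 4.30) of JMJD3-only sites.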
